A study of Mus musculus with 12 samples.

Results

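The genes described here encode the structural proteins of the striated muscle sarcomere: the thin, thick and titin filaments, the Z-disc and the M-band, apart from the isoforms that mark slow and fast fibres. The members are the 42 genes of a written list, each taken through the probe sets that carry its symbol alone. A probe set is the group of short oligonucleotides that reports 1 transcript on the array. Of the 42 genes 41 were measured, by 71 of the 45037 probe sets analysed, and Xirp2 was not analysed here. The 41 members are part of 18193 genes in all. Where a gene had several probe sets, the brightest stood for it.

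The study measured RNA from quadriceps muscle and liver of PGC1beta mutant mice and control mice on Affymetrix Murine expression arrays, 12 in all. The groups were PGC1beta mutant muscle, control muscle, PGC1beta mutant liver and control liver, with 3 arrays each, and all mice are labelled C57BL/6. The series title calls the mutation hypomorphic, meaning that it lowers the function of the gene without removing it. No source used here states the allele, the way it was made, or the age and sex of the mice. PGC1beta, encoded by Ppargc1b, is a coactivator of transcription of mitochondrial and lipid genes.

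In the sarcomere, myosin thick filaments pull on actin thin filaments that are anchored in the Z-disc, while titin spans from the Z-disc to the M-band and holds the thick filament in the centre. The Z-disc is also a place where proteins that sense stretch and signal to the nucleus are bound. Many of these genes are read by the serum response factor, by MEF2 factors and by myogenic factors that bind E-boxes.

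In muscle most of these genes read close to one another in mutants and controls. None of the 41 members passed an adjusted p of 0.05 in the muscle comparison, against 2 of 13131 genes tested (0.0152%), both higher in mutant muscle. At an unadjusted p under 0.05 there were 3 members, Myoz3, Pdlim3 and Capn3, where 4.26% of all genes tested reached that level. In the same 3 members the 3 mutant arrays did not overlap the 3 control arrays, a pattern seen in 9.54% of all genes. The lowest adjusted p of a member was 0.411. The tests come from limma with Benjamini-Hochberg adjustment over all genes, on log2(value + 16), where the offset of 16 intensity units steadies dim genes and makes their fold changes look smaller.

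Differences are log2 of mutant over control. The mutant mean was higher in 22 members and lower in 18, and Mylpf was at 0. The median difference was 0.01, and over all genes tested it was -0.00. The median size of the difference, sign aside, was 0.04 for the members and 0.13 for all genes. These sets differ in intensity, with 13 members among the 50 brightest probe sets of every muscle array. Genes of like intensity were not compared. The 95% confidence interval lay within a 1.5-fold change either way for 32 members and within 2-fold for 38. The split into higher and lower moved with the scaling, to 28 and 13 with the values as deposited and to 32 and 9 with median centring. The median over all genes tested moved as well, to 0.012 and 0.024, where that of the members was 0.024 and 0.037.

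Facts of the arrays touch these values. Nothing in the labels states that each array came from its own mouse, and the p-values therefore rest on a spread between samples that could be technical. Median intensity was 20.1 to 22.3 on muscle arrays and 27.2 to 40.1 on liver arrays, and the number of arrays limits the precision. In bulk tissue, fewer cells of a type and less RNA per cell cannot be told apart. Intensities of different probe sets depend on their probes, so levels are compared here between arrays and not between genes. Ppargc1b RNA did not mark the mutant muscle, at 423, 280 and 271 in mutants and 302, 284 and 332 in controls (0.06, adjusted p = 0.998). In liver it read 402, 491 and 202 in mutants and 544, 282 and 479 in controls (-0.28, adjusted p = 0.691), and whether its probe set covers the mutated stretch is not known here. Hepatocyte marker sums were 71.7 to 104 in mutant muscle and 80.0 to 134 in control muscle, and skeletal muscle marker sums were 97.3 to 143 in mutant liver and 118 to 168 in control liver.

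**Figure D1:**
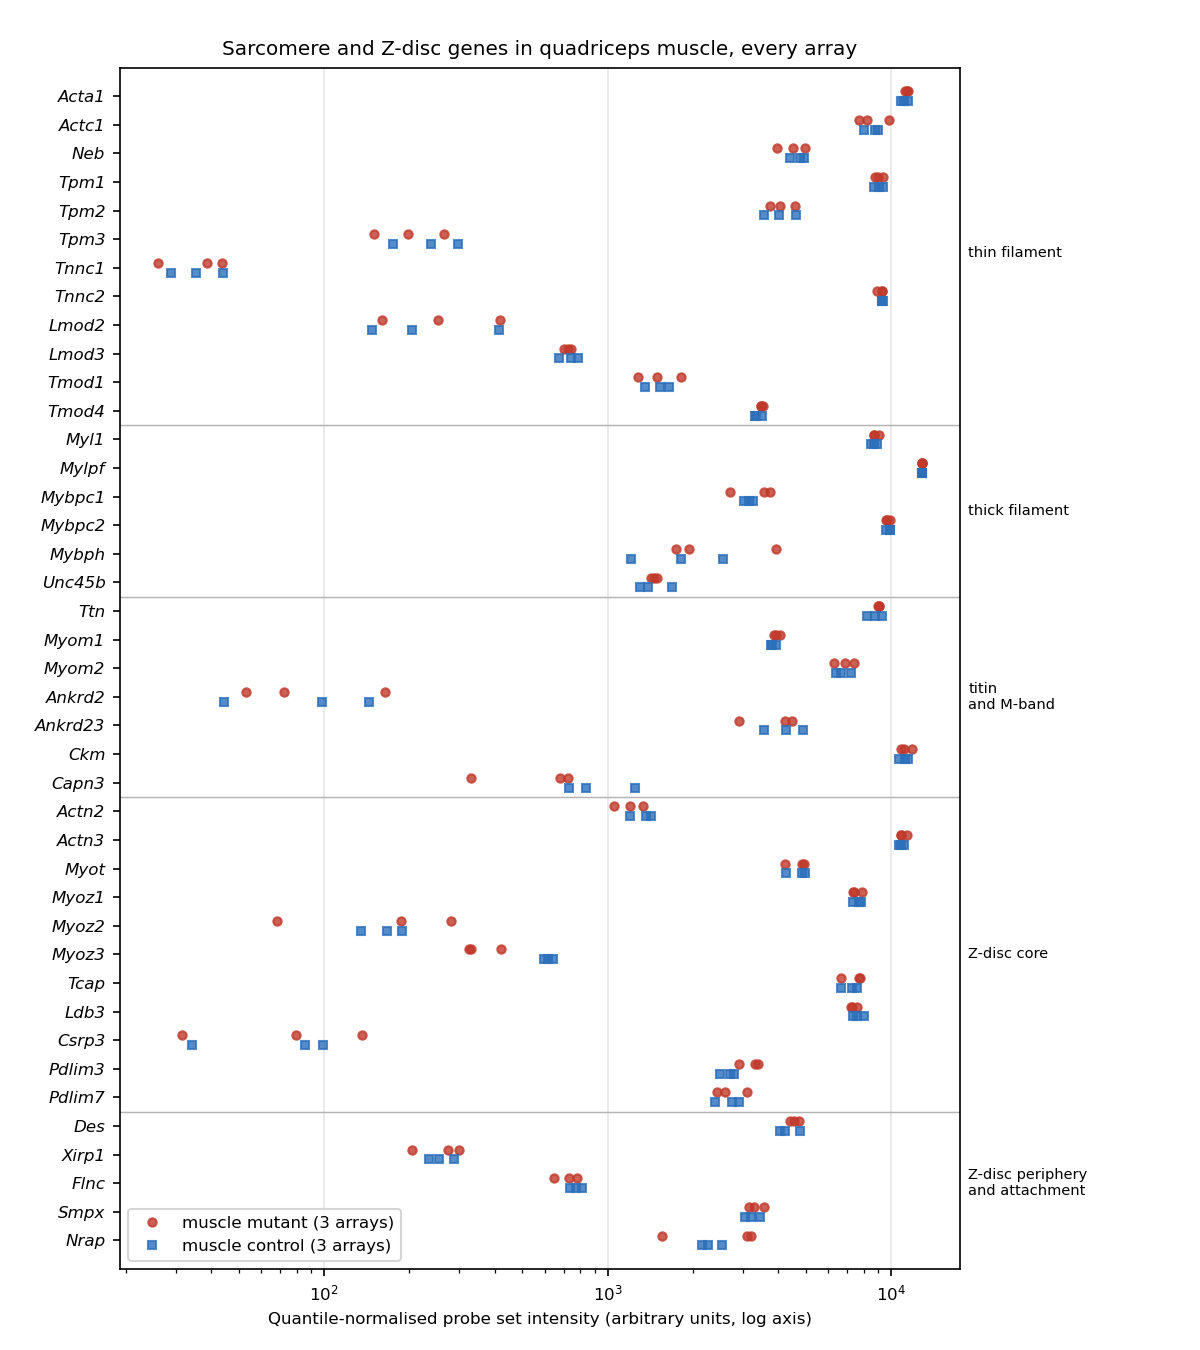
Intensity of each member on the 3 mutant (circles, upper) and 3 control (squares, lower) muscle arrays, in arbitrary units on a log axis, grouped by role. By the brightest probe set, the groups overlap in all members but Myoz3, Pdlim3 and Capn3. Csrp3, Myoz2, Ankrd2, Lmod2 and Mybph spread widely within a group.

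Promoter sequence was read for the members because the actin genes and several Z-disc and titin genes are known targets of these factors. RefSeq promoters of build GRCm38.p6 were found for 32 of the 41 measured members, each from 250 bases before to 50 bases after the start. Motifs were searched on both strands over these 300 bases. The CArG box, which binds serum response factor, was found in 4 members (12.5%), against 488 of 27025 genes (1.81%). The MEF2 site was found in 3 members (9.38%), against 2.16% of all genes. E-boxes (CANNTG) were found in 84.4% of members and 75.0% of genes, the M-CAT motif (CATTCC), bound by TEAD factors, in 34.4% and 16.6%, and TATAAA in 15.6% and 15.7%. In the members no CArG box, MEF2 site and TATAAA overlapped, and a match describes only the letters of the window.

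The 7 promoters with a CArG box or a MEF2 site are shown because these motifs are the known binding sites of 2 of these factors. Each run gives the 200 bases before the start, 5′ to 3′ on the gene's strand, with the CArG box, MEF2 site or TATAAA in capitals. The first 4 hold a CArG box.
Acta1 (minus strand, chr8:123894776-123894975): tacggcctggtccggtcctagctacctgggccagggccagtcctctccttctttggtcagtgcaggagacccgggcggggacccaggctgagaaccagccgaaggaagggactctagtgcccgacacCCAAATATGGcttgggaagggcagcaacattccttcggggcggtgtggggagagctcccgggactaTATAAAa
Actc1 (minus strand, chr2:114052876-114053075): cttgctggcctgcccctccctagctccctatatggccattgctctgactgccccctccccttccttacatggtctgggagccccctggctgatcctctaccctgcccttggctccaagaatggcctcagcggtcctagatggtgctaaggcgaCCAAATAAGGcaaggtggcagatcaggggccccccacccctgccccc
Ldb3 (minus strand, chr14:34588682-34588881): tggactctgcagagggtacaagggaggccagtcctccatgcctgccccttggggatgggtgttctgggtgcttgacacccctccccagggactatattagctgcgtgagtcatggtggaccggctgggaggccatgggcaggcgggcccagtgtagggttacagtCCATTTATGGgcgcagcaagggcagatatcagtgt
Myom1 (plus strand, chr17:71019357-71019556): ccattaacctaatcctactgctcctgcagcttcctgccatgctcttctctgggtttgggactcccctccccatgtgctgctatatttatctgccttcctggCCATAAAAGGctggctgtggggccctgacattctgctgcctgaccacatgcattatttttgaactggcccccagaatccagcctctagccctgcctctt
The other 3 hold a MEF2 site.
Ttn (minus strand, chr2:76982548-76982747): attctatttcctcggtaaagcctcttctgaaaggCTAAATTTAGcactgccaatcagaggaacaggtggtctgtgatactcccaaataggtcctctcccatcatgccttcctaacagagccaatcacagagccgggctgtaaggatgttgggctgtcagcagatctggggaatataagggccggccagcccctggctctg
Capn3 (plus strand, chr2:120463393-120463592): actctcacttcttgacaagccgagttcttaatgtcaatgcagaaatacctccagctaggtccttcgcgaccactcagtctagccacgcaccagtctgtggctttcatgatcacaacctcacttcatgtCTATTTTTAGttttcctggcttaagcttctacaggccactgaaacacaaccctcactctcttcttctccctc
Myoz2 (minus strand, chr3:123034988-123035187): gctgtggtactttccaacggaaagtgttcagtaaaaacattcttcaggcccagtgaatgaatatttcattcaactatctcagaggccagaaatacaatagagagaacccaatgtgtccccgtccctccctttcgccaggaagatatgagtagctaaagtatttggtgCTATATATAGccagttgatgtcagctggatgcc
The CArG boxes begin 73 bases before the start in Acta1, 47 in Actc1, 35 in Ldb3 and 99 in Myom1, and the MEF2 sites 166 in Ttn, 72 in Capn3 and 33 in Myoz2. Ldb3 and Capn3 have a further start listed; the second Ldb3 window holds the same box and the second Capn3 window holds no MEF2 site. Of these 7 genes, Capn3 alone had an unadjusted p under 0.05 in muscle by its brightest probe set.

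No thin filament member passed between genotypes. Of 12 members 6 had a higher and 6 a lower mutant mean, and the median difference was 0.00. Acta1, skeletal alpha actin, read 11435, 11241 and 11359 in mutant muscle and 10851, 11093 and 11435 in control muscle (0.03, SE 0.05). Actc1, cardiac alpha actin, read 7698, 8217 and 9813 in mutants and 9029, 8004 and 8801 in controls (-0.01, SE 0.09). Both actins, whose promoters hold a CArG box, had overlapping groups and a narrow spread.

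Nebulin, encoded by Neb, runs along the thin filament and helps to set its length. Neb read 4959, 4522 and 3964 in mutants and 4769, 4420 and 4924 in controls (-0.07, SE 0.09). Tropomyosins cover the myosin sites on actin. The fast alpha-tropomyosin gene Tpm1 read 8801, 9338 and 9029 in mutants and 8696, 9338 and 9074 in controls (0.00, SE 0.06). The beta-tropomyosin gene Tpm2 read 4055, 3757 and 4570 in mutants and 3553, 4014 and 4621 in controls (0.03, SE 0.11). Tpm3, the slow-muscle and cytoskeletal tropomyosin, was dim in muscle and varied more, at 197, 150 and 266 in mutants and 176, 239 and 296 in controls (-0.20, SE 0.22). The groups overlapped in each of these genes by its brightest probe set.

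Fast skeletal troponin C, the calcium sensor encoded by Tnnc2, read 9278, 9278 and 8945 in mutants and 9278, 9278 and 9338 in controls (-0.02, SE 0.05). Its slow and cardiac relative Tnnc1 was near the offset, at 43.8, 26.0 and 38.6 in mutants and 28.8, 35.3 and 43.9 in controls (-0.00, SE 0.21). Tropomodulins cap the pointed end of the thin filament. Tmod1 read 1286, 1497 and 1810 in mutants and 1531, 1356 and 1645 in controls (0.01, SE 0.13). Tmod4, the skeletal form, read 3478, 3489 and 3527 in mutants and 3311, 3519 and 3337 in controls (0.05, SE 0.07).

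Leiomodins nucleate and lengthen actin filaments at that same end. Lmod3 was steady at 741, 700 and 725 in mutants and 743, 673 and 786 in controls (-0.02, SE 0.10). Lmod2 was not, reading 253, 419 and 161 in mutants and 204, 413 and 147 in controls (0.14, SE 0.37), with a range of 2.84-fold over the 6 arrays. Its spread was as wide in one genotype as in the other, and its 95% interval, -0.68 to 0.96, is among the widest of the members.

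Among the 6 thick filament members 4 had a higher and 1 a lower mutant mean, with a median of 0.02. Myl1, the fast essential light chain of myosin, read 8696, 9074 and 8696 in mutants and 8945, 8696 and 8523 in controls (0.02, SE 0.06). Mylpf, the fast regulatory light chain, was the brightest probe set on all 6 muscle arrays, and quantile normalisation therefore gave it 12841 on each of them. Its difference of 0 was set by that step. As deposited, Mylpf read 13158, 12611 and 12844 in mutants and 12441, 12687 and 13325 in controls, a difference of 0.01 (SE 0.06). The same limit touches the other bright members, since 13 were among the 50 brightest probe sets of every muscle array. Their differences ran from -0.05 to 0.05, from -0.02 to 0.06 with the values as deposited, and from -0.01 to 0.07 with median centring, with 7, 9 and 12 of the 13 higher in mutants.

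Myosin-binding protein C proteins lie along the thick filament and tune the cross-bridges. The slow form Mybpc1 read 3566, 3748 and 2699 in mutants and 3260, 3159 and 3021 in controls (0.07, SE 0.12). The fast form Mybpc2 read 9939, 9594 and 9713 in mutants and 9594, 9939 and 9939 in controls (-0.01, SE 0.05). Mybph, a shorter relative, was uneven, at 1744, 1932 and 3934 in mutants and 1213, 1814 and 2562 in controls (0.41, SE 0.31, adjusted p = 0.994). Its mutant mean was the highest relative to control of all members, and without mutant 3 the difference was 0.04. Unc45b, the chaperone that folds muscle myosin, read 1424, 1464 and 1500 in mutants and 1384, 1299 and 1687 in controls (0.01, SE 0.11).

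Around titin and the M-band 4 of 7 members had a higher and 3 a lower mutant mean, with a median of 0.02. Ttn, the titin gene, read 9074, 9029 and 9074 in mutants and 8217, 8801 and 9278 in controls (0.05, SE 0.06). The myomesins bind titin to myosin in the M-band. Myom1 read 4070, 3937 and 3851 in mutants and 3769, 3937 and 3791 in controls (0.04, SE 0.07). Myom2 read 6303, 6877 and 7430 in mutants and 6370, 6655 and 7228 in controls (0.02, SE 0.08). Ckm, the muscle creatine kinase that is partly bound to the M-band, read 10851, 11869 and 11093 in mutants and 11435, 11241 and 10644 in controls (0.02, SE 0.06). In none of these genes of the sarcomere centre did the groups separate by the brightest probe set.

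Titin also carries stretch-responsive ankyrin repeat proteins. Ankrd2 was low and scattered, at 72.2, 164 and 53.1 in mutants and 44.4, 98.4 and 144 in controls (-0.00, SE 0.39). Ankrd23 read 4226, 4491 and 2900 in mutants and 4272, 4910 and 3566 in controls (-0.15, SE 0.16), lowest in mutant 3. Both had overlapping groups.

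Calpain 3, a protease that binds titin and whose loss causes a limb-girdle muscular dystrophy in humans, is encoded by Capn3. Its brightest probe set read 330, 726 and 680 in mutants and 840, 1252 and 729 in controls, a difference of -0.73 (SE 0.28, 95% interval -1.35 to -0.10, unadjusted p = 0.0269, adjusted p = 0.994). Mutant 2 and control 3 were almost level, and without mutant 1 the difference was -0.37. The suffix of that probe set marks probes that may also match other transcripts. The second probe set read 717, 762 and 560 in mutants and 837, 685 and 675 in controls, and its difference was -0.11 (SE 0.14). Neither Capn3 probe set passed, and they differ in size but not in sign.

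Of the 11 Z-disc core members 5 had a higher and 6 a lower mutant mean, with a median of -0.01. Alpha-actinins crosslink the actin filaments of neighbouring sarcomeres. Actn2 read 1057, 1335 and 1201 in mutants and 1201, 1372 and 1422 in controls (-0.15, SE 0.11). The fast-fibre form Actn3 read 11359, 10851 and 10851 in mutants and 10644, 10851 and 11093 in controls (0.02, SE 0.05). Myot, the actin bundler myotilin, read 4854, 4924 and 4226 in mutants and 4838, 4959 and 4263 in controls (-0.01, SE 0.09). Each had overlapping groups.

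Tcap, telethonin, which ties the ends of 2 titin molecules together, read 7748, 7698 and 6655 in mutants and 7284, 7607 and 6655 in controls (0.04, SE 0.08). Ldb3, which encodes the PDZ and LIM protein ZASP, read 7284, 7228 and 7607 in mutants and 7558, 7353 and 8004 in controls (-0.05, SE 0.06). Another Ldb3 probe set read 2832, 3057 and 3410 in mutants and 4338, 3282 and 4043 in controls (-0.32, SE 0.11, unadjusted p = 0.0162, adjusted p = 0.989 over all probe sets). One more read 1455, 1432 and 1422 in mutants and 1527, 1576 and 1823 in controls, all lower in mutants (-0.19, SE 0.09, unadjusted p = 0.0711). These 3 Ldb3 probe sets had lower mutant means to differing degrees, and none passed. With values as deposited the difference of the brightest was -0.01, and with median centring it was 0.01.

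Pdlim3 and Pdlim7 encode further PDZ and LIM proteins that bind alpha-actinin. Pdlim3 read 3304, 3391 and 2907 in mutants and 2792, 2489 and 2712 in controls, a difference of 0.26 (SE 0.09, 95% interval 0.07 to 0.45, unadjusted p = 0.0120, adjusted p = 0.994). All 3 mutants lay above all 3 controls, but the difference did not pass over all genes. Pdlim7 read 2439, 2600 and 3113 in mutants and 2395, 2757 and 2900 in controls (0.01, SE 0.11).

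Csrp3 encodes muscle LIM protein, which is found at the Z-disc and is known from slow and cardiac muscle. It was dim and scattered in muscle, at 79.7, 136 and 31.4 in mutants and 34.3, 86.0 and 98.9 in controls (0.08, SE 0.41), a range of 4.32-fold. The calsarcins, encoded by the Myoz genes, bind calcineurin at the Z-disc. Myoz1, of fast fibres, read 7878, 7430 and 7353 in mutants and 7812, 7728 and 7353 in controls (-0.01, SE 0.06). Myoz2, of slow fibres and heart, read 186, 280 and 68.1 in mutants and 135, 167 and 188 in controls (-0.05, SE 0.37), a range of 4.11-fold.

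Myoz3, the other calsarcin gene of fast fibres, had the smallest p of the members. Its brighter probe set read 330, 326 and 422 in mutants and 644, 598 and 618 in controls, so every mutant array lay well below every control array. The difference was -0.77 (SE 0.12, 95% interval -1.04 to -0.49), or 0.587-fold, with an unadjusted p of 9.39e-05 and an adjusted p of 0.411. It had rank 3 by p among 13131 genes. The second probe set went the other way, with 283, 169 and 253 in mutants against 82.5, 63.0 and 65.3 in controls. That difference was 1.52 (SE 0.19, 95% interval 1.09 to 1.95, unadjusted p = 1.06e-05), with an adjusted p of 0.0959 over 27022 probe sets, where 2 passed (0.0074%).

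Neither Myoz3 probe set passed the threshold in these fits. The second passed in 2 of the alternatives, with an adjusted p of 0.0311 without mutant 2 and 0.00979 with the sample number as a block. Whether that number pairs these arrays is not known. Over its other alternatives, its adjusted p ran up to 0.647. The mean of the 2 probe sets gave a difference of 0.37, so the direction for the gene depends on the probe set. Probe sets with opposite signs at an unadjusted p under 0.05 occurred in 1 of the 14 members with several tested probe sets and in 8 of 5732 genes. What part of the transcript each probe set detects was not tested.

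**Figure D2:**
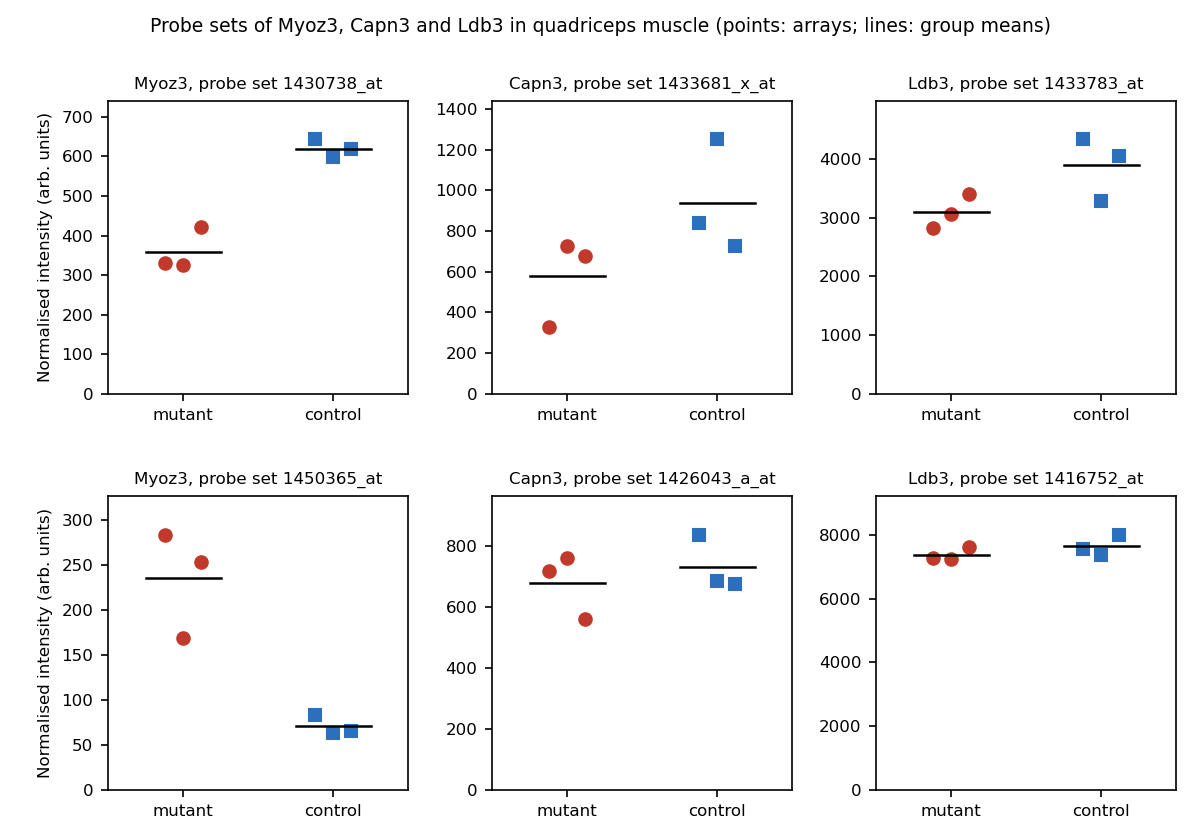
Intensity (arbitrary units, linear axes from 0) of probe sets of Myoz3, Capn3 and Ldb3 on 3 mutant (left, circles) and 3 control (right, squares) muscle arrays, with group means as lines. The Myoz3 probe sets move in opposite directions without overlap, while Capn3 and Ldb3 are lower in mutants in 1 probe set more than in the other.

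Myoz3 lies at chr18:60573717-60591716 in GRCm38.p6, 699.7 kb from Ppargc1b (chr18:61291445-61400756). The 2 genes that passed in muscle lie there too. BC023105 (chr18:60438431-60443320), 848 kb from Ppargc1b, read 2802, 3566 and 2712 in mutants and 429, 486 and 702 in controls (2.47, adjusted p = 0.000651). Iigp1 (chr18:60373616-60392634), an interferon-inducible GTPase gene 899 kb away, read 670, 628 and 1142 in mutants and 92.7, 99.2 and 168 in controls (2.60, adjusted p = 0.00704). These genes and Myoz3 held the first 3 ranks by p. Within 1 Mb of Ppargc1b, 23 other genes were tested, of which 2 passed and 4 had an unadjusted p under 0.05. Myot, the other member on chromosome 18, lies 16936 kb from Ppargc1b and differed by -0.01. Whether the genomic neighbourhood bears on the Myoz3 values was not tested.

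Of the 6 genes at the Z-disc periphery and the attachments to the membrane 5 were measured, 3 with a higher and 2 with a lower mutant mean, at a median of 0.04. Des, the intermediate filament desmin that links Z-discs to each other, read 4725, 4552 and 4385 in mutants and 4210, 4769 and 4070 in controls (0.07, SE 0.08). Flnc, filamin C, read 780, 729 and 645 in mutants and 736, 774 and 812 in controls (-0.11, SE 0.10). Xirp1, an actin-binding protein of attachment sites, read 273, 300 and 204 in mutants and 235, 288 and 254 in controls (-0.01, SE 0.16). In none of these were the groups apart.

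Smpx, the small muscle protein of the costamere, read 3289, 3166 and 3553 in mutants and 3452, 3063 and 3202 in controls (0.04, SE 0.08). Nrap, which anchors terminal actin filaments and assists the assembly of myofibrils, read 3096, 3214 and 1554 in mutants and 2263, 2529 and 2153 in controls (0.11, SE 0.23). Mutant 3 was the lowest and the other mutants the highest of the 6 arrays for Nrap.

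**Figure D3:**
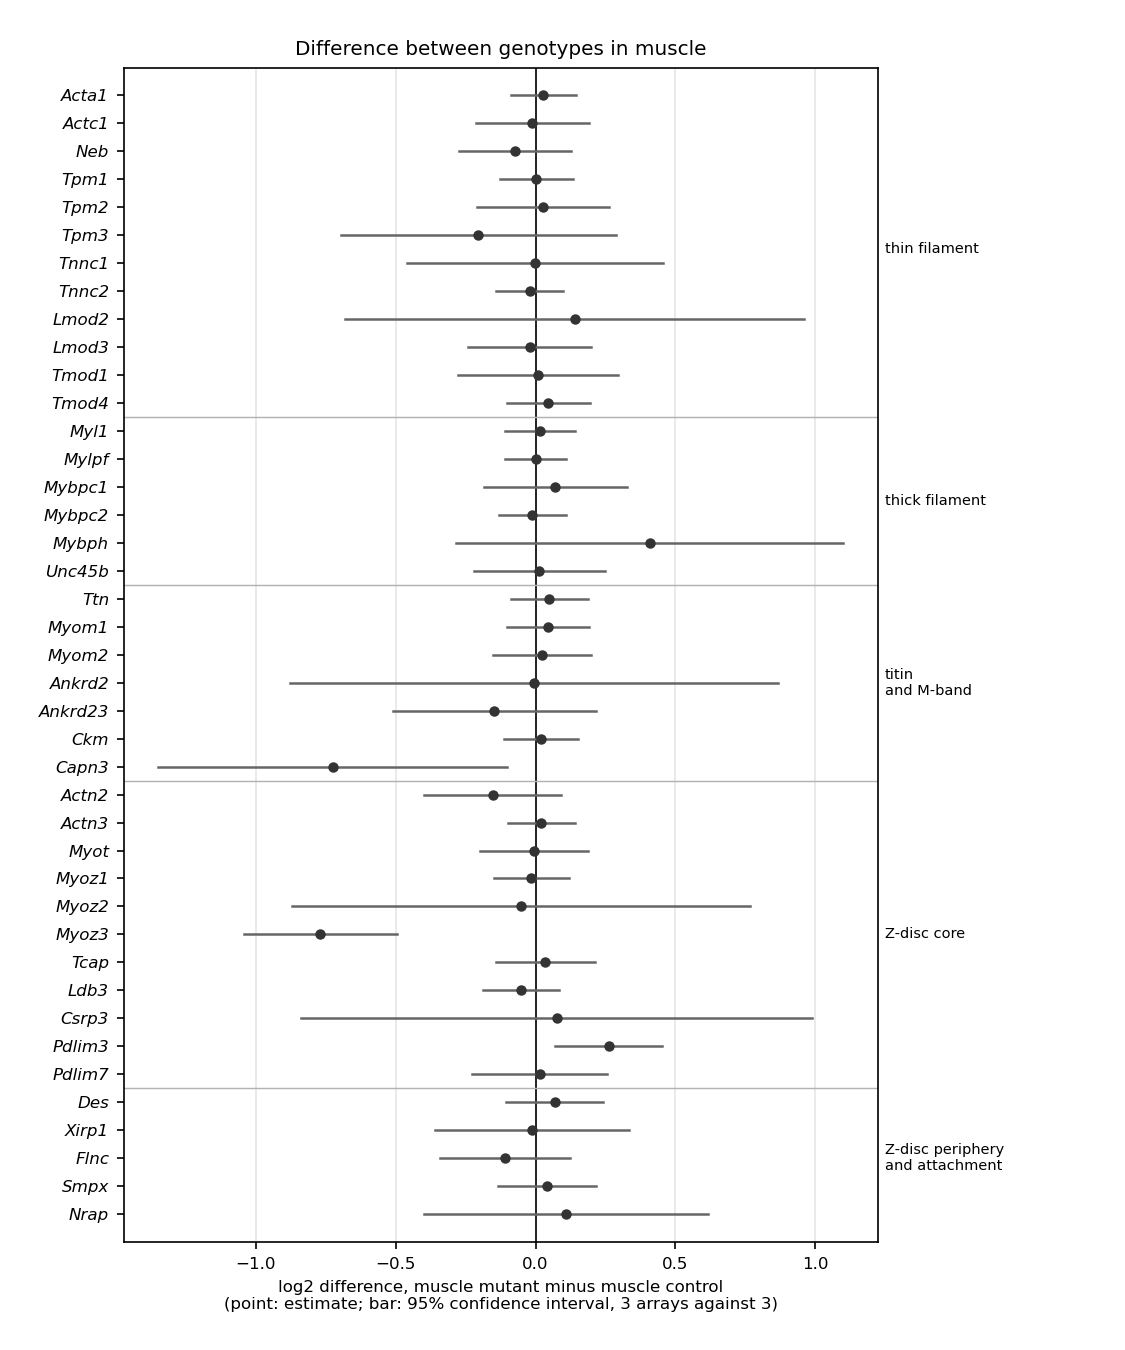
Difference between mutant and control muscle for each member on the log2 scale, with its 95% confidence interval, grouped by role. Intervals of Myoz3, Capn3 and Pdlim3 exclude 0 before adjustment, and the intervals of the other members include it.

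Over all probe sets of the members, 70 of 71 passed the filter on low values in muscle. None passed the test, 7 had an unadjusted p under 0.05 (4.45% of all probe sets did), and in 8 the groups did not overlap (9.69%). Besides those described, a further Tpm3 probe set read 39.0, 36.2 and 40.3 in mutants and 28.4, 21.9 and 21.9 in controls (0.45, SE 0.18, unadjusted p = 0.0316). A further Tpm1 probe set read 148, 138 and 168 in mutants and 119, 96.0 and 127 in controls (0.37, SE 0.15, unadjusted p = 0.0333). In both, every mutant lay above every control, while the brightest probe sets of these genes, given above, had overlapping groups. A second bright Ttn probe set was higher in all 3 mutants, at 8394, 8523 and 8394 against 7353, 7878 and 8217 in controls (0.11, SE 0.06, unadjusted p = 0.113).

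Between muscle arrays, both genotypes together, the members fell into steady and uneven ones. The widest ranges over the 6 muscle arrays were those of Csrp3, Myoz2, Capn3 (3.80-fold), Ankrd2 (3.69-fold), Mybph (3.24-fold), Lmod2 and Nrap (2.07-fold). That of Capn3 runs from 330 in mutant 1 to 1252 in control 2, so it includes the difference between genotypes. Csrp3, Myoz2, Ankrd2 and Lmod2 each had their highest value in mutant 2, and each was lower in mutant 3 than in the other mutants. Myh2, the myosin heavy chain of type IIa fibres and not a member, read 3410, 5177 and 308 in mutants and 1963, 2002 and 1246 in controls, also highest in mutant 2 and lowest in mutant 3. Mybph was highest in mutant 3. Summed fibroblast and tendon markers, 6 genes, were 13181, 12299 and 23522 in mutants and 16717, 8272 and 15664 in controls, likewise highest in mutant 3. All 4 adipocyte markers tested had higher mutant means, with sums of 1996, 3203 and 2979 in mutants and 1758, 2973 and 2428 in controls, and none passed. What other cells in the dissected tissue contribute to these spreads was not tested.

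**Figure D4:**
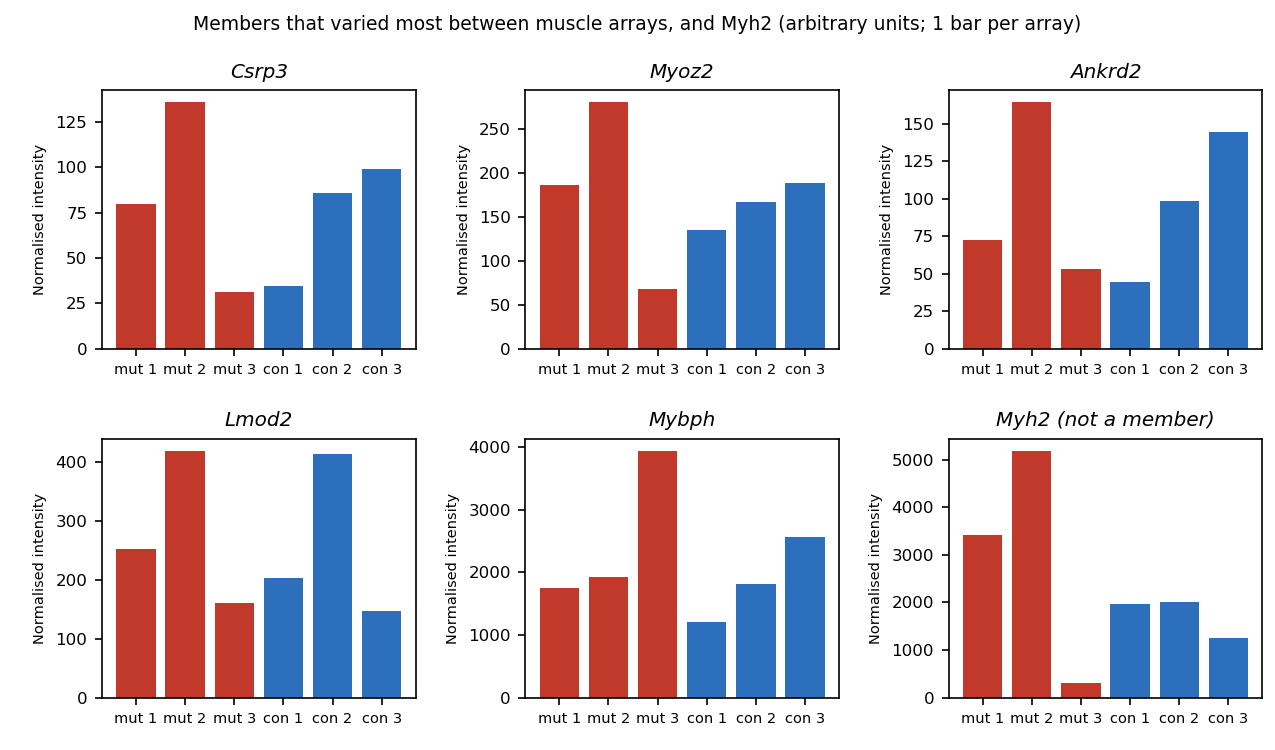
Intensity (arbitrary units) on each muscle array, mutants in red on the left and controls in blue on the right, for 5 uneven members and for Myh2, which is not a member. Csrp3, Myoz2, Ankrd2, Lmod2 and Myh2 are highest in mutant 2, and Mybph is highest in mutant 3.

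Of 6 further lists of genes around the sarcomere none had a member that passed in muscle. Among 30 tested genes of other Z-disc, titin and M-band proteins 14 had a higher and 16 a lower mutant mean, at a median of -0.01. The smallest limma p-values were those of Klhl40, which stabilises nebulin and leiomodin (0.18, SE 0.09), of Mypn, myopalladin (0.17, SE 0.08), and of the cardiac form Mybpc3, near the offset (-0.49, SE 0.27). Klhl40 read 1100, 1117 and 1185 in mutants and 1026, 955 and 1016 in controls, with no overlap.

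Of 14 sarcomere chaperones and ubiquitin ligases 3 had a higher and 11 a lower mutant mean, at a median of -0.08. Smyd1, a methyltransferase that works with myosin chaperones, read 1046, 1127 and 1178 in mutants and 1246, 1563 and 1511 in controls (-0.36, SE 0.11, unadjusted p = 0.00735, adjusted p = 0.994). Unc45a and Bag3 differed by -0.28 (SE 0.16) and -0.26 (SE 0.14). Smyd1 and Unc45a had no overlap between groups, while those of the myosin chaperone Unc45b, a member, overlapped.

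For the costamere and dystrophin complex, 12 of 20 genes had a higher mutant mean, and the smallest p-values were those of the linker gene Plec (0.21, SE 0.09), Sntb1 (0.39, SE 0.23) and Ilk (-0.17, SE 0.12). Of 15 regulators around serum response factor, MEF2 and the myogenic factors, 10 had a higher mutant mean. Mrtfa, a coactivator of serum response factor, read 398, 360 and 339 in mutants and 434, 450 and 426 in controls (-0.25, SE 0.11, unadjusted p = 0.0455, adjusted p = 0.994). Myf6, a myogenic factor of adult fibres, and the deacetylase gene Hdac5 differed by 0.20 (SE 0.09) and 0.17 (SE 0.13). Srf itself differed by 0.00 (SE 0.16).

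The isoforms that mark fibre types, left out of the members, gave the setting. All 9 fast isoforms were tested, with a median of -0.01, and the smallest p-values were those of Myh1 (-0.09, SE 0.07), Myh4 (-0.06, SE 0.06) and Atp2a1 (-0.04). Of 8 slow isoforms 6 passed the filter, with 4 higher and 2 lower, led by Myl3 (-0.31, SE 0.18), Tnnt1 (0.25, SE 0.24) and Casq2 (0.15). The slow myosin gene Myh7 ran from 6.05 to 12.6 in mutants and from 4.55 to 14.0 in controls, below the filter.

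Between control muscle and control liver, the members above the filter on low values in both tissues are given first. Of the 41 members, 16 were above the filter on low values in both, and 13 of them passed as higher in muscle and 3 as lower, where 62.2% of 11841 such genes passed, 15.2% as higher and 47% as lower. The median difference of the 16, chosen after seeing the data in place of that of all members, was 5.02 on the log2 scale, with -0.48 over those genes. With quantile normalisation over all 12 arrays it was 5.68, with 0.02 over the genes. With an offset of 1 or 64 it was 5.75 or 4.37, so the size depends on the scale. Some of the 16 read near or under the offset on some liver arrays, such as Mylpf (18.2 to 48.2), Ckm (8.66 to 47.6) and Flnc (6.00 to 51.7). Myoz1, which links alpha-actinin to calcineurin at the Z-disc, ran from 7353 to 7878 in muscle and from 98.3 to 194 in liver (5.55, SE 0.17). Tpm2 ran from 3553 to 4621 in muscle and from 96.4 to 201 in liver (4.63, SE 0.20). The liver level depends on the probe set. The other Myoz1 probe set ran from 282 to 419 in muscle and from 1.60 to 2.71 in liver. A further Tpm2 probe set ran from 4910 to 6141 in muscle and from 6.44 to 27.5 in liver.

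The other 25 members were above the filter in muscle alone and entered the comparison only through that tissue. The filter itself thus favoured a higher level in muscle, and the calls of these members are not read as a result. These 25 members ran from 44.4 to 11435 over the muscle arrays and from 1.03 to 41.8 over the liver arrays. Many liver values lay under the offset of 16, and no fold is given for these members. Actn3, for example, ran from 10644 to 11359 in muscle and from 3.68 to 9.49 in liver. With them, all 41 passed, 38 higher and 3 lower, where 61.8% of 14616 genes passed, 16% higher and 45.8% lower. The call of Ankrd2, at 44.4 or more in muscle and at most 37.0 in liver, was lost without muscle control 3 (adjusted p = 0.0538).

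By the probe set that stood for each gene, the 3 members Csrp3, Tpm3 and Tnnc1 were lower in muscle than in liver. Csrp3 ran from 31.4 to 136 in muscle and from 351 to 555 in liver (-2.39, SE 0.35, adjusted p = 1.87e-05). Tpm3, whose gene also makes a cytoskeletal tropomyosin of non-muscle cells, ran from 150 to 296 in muscle and from 854 to 1078 in liver (-2.05, SE 0.19, adjusted p = 8.98e-08). The direction for Tpm3 depends on the probe set. A dim one ran from 21.9 to 40.3 in muscle and, under the offset, from 4.31 to 11.3 in liver. Another, at 14.6 to 49.5 and 1.30 to 22.1, had higher means in muscle. The others were lower in muscle, at 32.9 to 53.2 against 73.6 to 171 and at 9.93 to 90.7 against 230 to 487. Tnnc1 ran from 26.0 to 43.9 in muscle and from 51.2 to 75.5 in liver (-0.55, SE 0.21, adjusted p = 0.0299). The Tnnc1 call was lost with the values as deposited (-0.55, adjusted p = 0.0544) and with quantile normalisation over all 12 arrays (-0.07, adjusted p = 0.808), which moved the median of all genes by 0.49. It was also lost without muscle control 1 (-0.46, adjusted p = 0.103) or 2 (-0.54, adjusted p = 0.0701), and without liver control 1 (-0.54, adjusted p = 0.0650) or 3 (-0.52, adjusted p = 0.0723). What the Csrp3 probe set detects in liver was not tested.

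**Figure D5:**
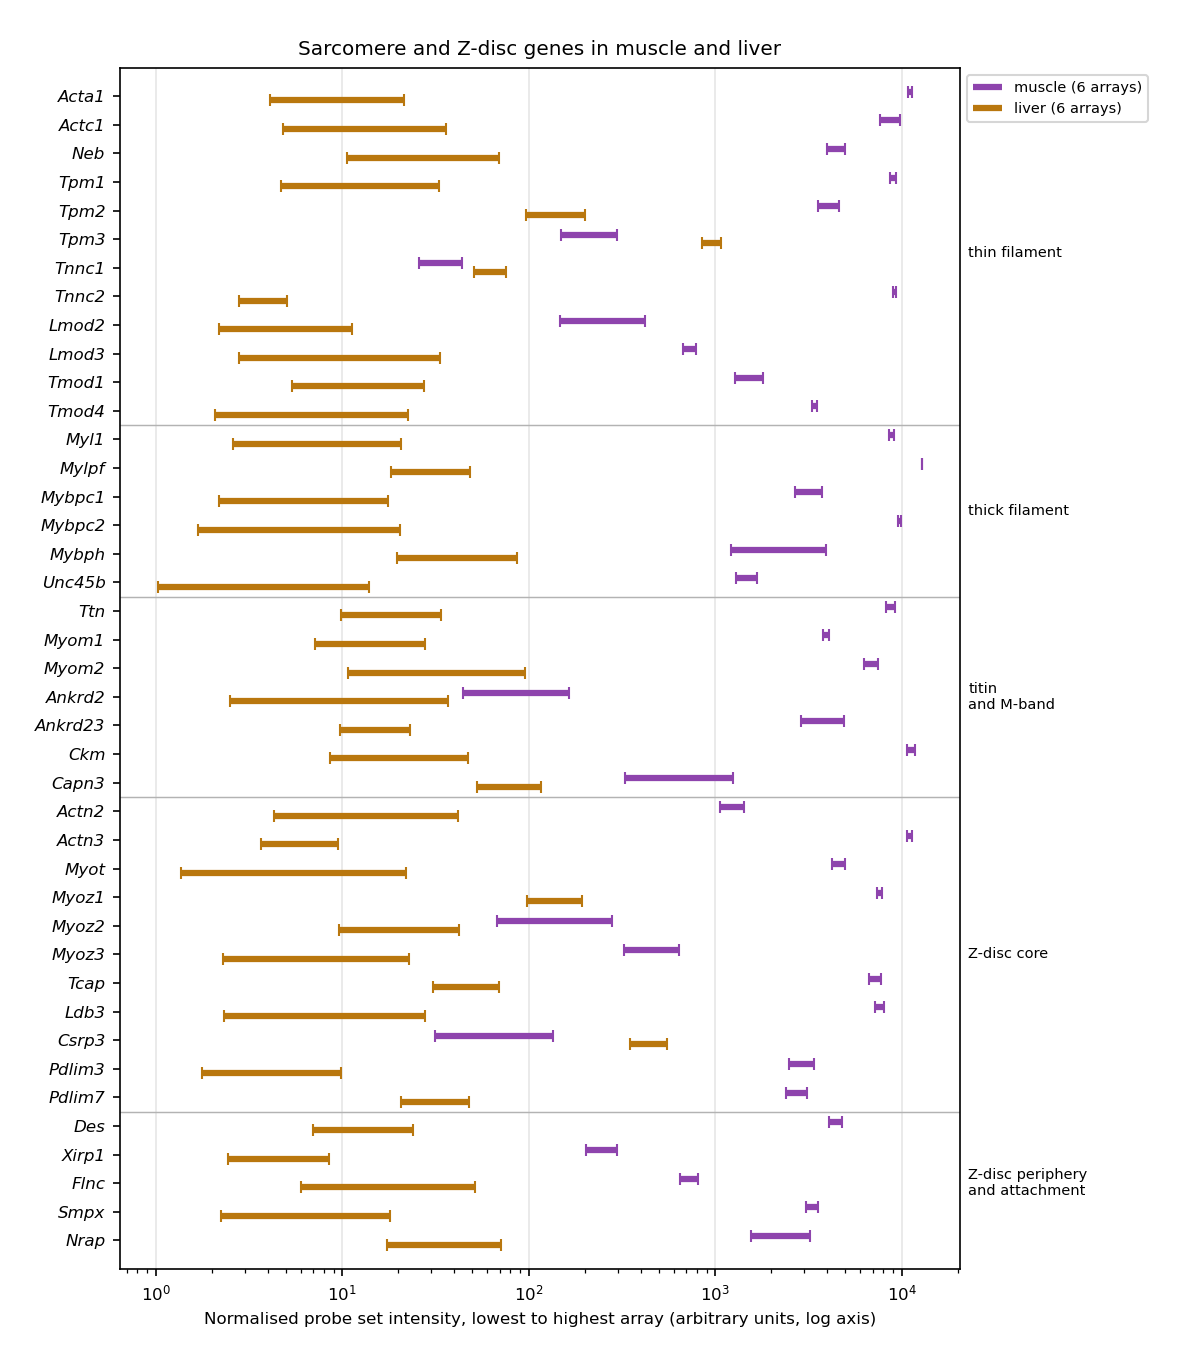
Lowest to highest intensity of each member over the 6 muscle arrays (purple, upper) and the 6 liver arrays (brown, lower), mutants and controls together, in arbitrary units on a log axis. By the brightest probe set, the muscle range lies above the liver range in 38 members. It lies below in Csrp3, Tpm3 and Tnnc1. Of the 38, 25 were above the filter on low values in muscle alone, and that filter itself favours such a separation. The share of all genes with ranges apart was not computed.

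In liver 16 of the 41 members passed the filter on low values, and none passed the test between genotypes, against 3.35% of 13326 genes, 2.33% higher and 1.03% lower in mutants. None had an unadjusted p under 0.05 (19.6% of all genes), and in 2, Tpm3 and Ckm, the groups did not overlap (24%). The mutant mean was higher in 9 and lower in 7, with a median of 0.10, and over all genes it was 0.01. Tpm3 read 942, 854 and 859 in mutants and 1078, 968 and 990 in controls (-0.19, SE 0.12). Csrp3 read 555, 462 and 482 in mutants and 423, 507 and 351 in controls (0.23, SE 0.17). The 3′ to 5′ signal ratio of the control transcripts, as a mean log2 value, was 1.90, 0.90 and 1.87 in liver mutants and 0.74, 0.97 and 0.50 in liver controls; in muscle it was 0.41, 0.33 and 0.56 in mutants and 0.41, 0.40 and 0.52 in controls. Its part in the liver values was not tested.

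The other 14 members tested in liver read at most 201 on any liver array. Ckm ran from 8.66 to 22.5 in mutants and from 25.5 to 47.6 in controls (-0.68, SE 0.32, adjusted p = 0.287), and it passed in the single fit to all 12 arrays (adjusted p = 0.0234). Flnc read 17.7, 51.7 and 48.8 in mutants and 7.95, 6.00 and 37.4 in controls (0.80, SE 0.43). Neb (-0.67, SE 0.34), Mybph (-0.67, SE 0.34) and Myom2 (0.53, SE 0.47) were also uneven. Tpm2, Tnnc1, Mylpf, Myoz1, Myoz2, Tcap, Pdlim7, Capn3 and Nrap differed by -0.15 to 0.35. Of all member probe sets 31 were tested in liver, where none passed (2.05% of all probe sets did), none had an unadjusted p under 0.05 (17.9%) and 5 had no overlap (22.3%).

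The effect of the mutation in liver was set against that in muscle for the same 16 members, and none passed, where 1.42% of 11841 genes did. At an unadjusted p under 0.05 there were 4 (15.5% of all genes): Ckm at -0.70 (SE 0.24, adjusted p = 0.164), Capn3 at 1.07 (SE 0.42), Mybph at -1.07 (SE 0.50) and Flnc at 0.91 (SE 0.42), as liver effect minus muscle effect. Mybph and Capn3 were among the members with the widest ranges over the muscle arrays of both genotypes.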

How the data were processed

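Total RNA of 12 samples was hybridised to Affymetrix Murine arrays, per the labels. The deposited values are linear probe set intensities in arbitrary units; no source used here states the algorithm and scaling by which the authors made them from the scans, and the series' design text names d-Chip for clustering only. Of 45101 probe sets, 64 controls were left out. Probe sets were named through the platform annotation, with symbols updated to GRCm38.p6 through Entrez identifiers: 34945 had 1 symbol, 932 several and 9160 none.

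Intensities were taken to log2 after adding 16 and then quantile normalised within each tissue. The probe set with the highest mean over the 12 arrays stood for a gene, and genes above the 40th percentile of mean intensity in the tissue were tested. Mutant was compared with control in each tissue, the tissues between controls, and the 2 genotype effects with each other, using limma 3.58.1 in R 4.3.3 (empirical Bayes with a variance trend), Benjamini-Hochberg adjustment over all genes and a threshold of 0.05. The code was tested on simulated data. The alternatives tried were an offset of 1 or 64, dropping the filter or raising it to the 60th percentile, the values as deposited, median centring, quantile normalisation over all 12 arrays, no variance trend, averaging a gene's probe sets, testing each of them alone, 1 fit to all 12 arrays, the sample number as a block and leaving out each array. Probe sets of members with an unadjusted p under 0.05 were followed through these settings as an addition made after seeing the data. Plots used Python 3.11.15 and matplotlib 3.10.9.

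Every member is accounted for. Of each other list, the genes past the threshold and otherwise up to 3 with the smallest p in muscle are named, and Srf, Myh2, Myh7 and Unc45b beside Unc45a were named after their values were seen. The members and lists were chosen with earlier results of these data known.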

Additional observations from a re-analysis of the deposited data

How the results depend on the processing

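No member passed in muscle, in the tissue interaction or, with 1 exception, in liver under any alternative run: in the single fit to all 12 arrays 1 member passed in liver, Ckm at -0.68. These are results by gene; the second Myoz3 probe set passed on its own without muscle mutant 2 and with the block. Between tissues 40 to 41 members passed, the one lost being Tnnc1 or, without muscle control 3, Ankrd2. The median member difference in muscle was 0.037 with median centring, where that of all genes was 0.024. With 1 array left out the member median ran from -0.01 to 0.02. In liver, leaving out 1 array gave a median of -0.15 to 0.16, the lowest without control 3 and the highest without control 2. Over all genes in muscle 2 passed, against 0 without the variance trend, 1 with the mean of the probe sets, 1 in the single fit to all 12 arrays and 1 to 2 with 1 array left out, 1 being without control 1 or control 2. Over all genes in liver 447 passed, against 222 without the filter, 297 with the values as deposited, 0 without the variance trend, 171 with the mean of the probe sets, 998 in the single fit and 0 to 742 with 1 array left out, 0 being without mutant 1 and 742 without mutant 2. The causes were not tested. Of 410 member values in muscle under other settings 401 stayed within the replicate SD and 9 moved further, and 25 changed sign. With 1 array left out, all 246 stayed within it and 50 changed sign. At 3 arrays a group, leaving 1 out can hardly move a difference beyond that SD. The count of 246 therefore says nothing about how steady the values are.

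With the sample number as a replicate block, 0 members and 2 of all genes passed in muscle, the median was 0.01, and 11 of all genes passed in liver. Same-numbered muscle arrays correlated at 0.04, 0.09 and 0.20 in their deviations and liver arrays at -0.01, -0.12 and -0.03. Not every array correlated best with its own number, and whether the numbers pair the arrays is not known.

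Signal limits the dim members. Tnnc1, Csrp3 and Ankrd2 lay near the offset on some muscle arrays, and the number of arrays, 3 a group, sets the width of every interval.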

Other observations

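In liver, 2 genes of the surrounding lists fell, where 1.03% of 13326 genes did: 1 of 3 slow fibre isoforms tested and 1 of 12 regulators, with none in the other sarcomere, chaperone and costamere lists. Atp2a2, the calcium pump of slow fibres and of many other cells, read 787, 932 and 826 in mutant liver and 1275, 1238 and 1456 in control liver, a difference of -0.63 (SE 0.13, adjusted p = 0.0331 by limma). Mrtfa, the coactivator of serum response factor, read 46.0, 28.8 and 13.9 in mutant liver and 94.8, 102 and 79.1 in control liver, a difference of -1.30 (SE 0.28, adjusted p = 0.0352 by limma). Of 6 macrophage markers 2 rose in mutant liver, Tyrobp by 1.34 and Lyz2 by 1.28, where 2.33% of all genes rose. These 4 calls, like every other call in liver, were lost without liver mutant 1. The 3′ to 5′ ratio was above every control array in 2 of the 3 mutant liver arrays, and its part in these values was not tested.

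In muscle, the perinatal myosin gene Myh8, a marker of regenerating fibres, read 44.1, 44.5 and 44.8 in mutants and 32.7, 27.5 and 23.9 in controls, a difference of 0.46 (SE 0.17, unadjusted p = 0.0231, adjusted p = 0.994 by limma). Of the 4 genes of that list tested, 3 had a higher and 1 a lower mutant mean, and none passed.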
